A study of Homo sapiens with 20 samples.

Results

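The data described here are the 10 libraries of CD133-negative cells in a series of 19 libraries with deposited counts. They were chosen by their labels, 5 from cells with a control shRNA (CD133- Control) and 5 from cells with an shRNA against EIF4G2 (CD133- EIF4G2KD). HEC-1A is an established line of human endometrial adenocarcinoma. The cells of both groups carried a stable lentiviral pLKO.1 insert selected with puromycin, which held either an shRNA to GFP, labelled shNT, or a single shRNA to EIF4G2, labelled shDAP5 after an older name of the gene. They were separated with magnetic CD133 beads and then by flow cytometry, and 15000 cells per sample went into MARS-seq, in which reads come from the 3' ends of polyadenylated RNA. The other 9 libraries, 4 CD133+ Control and 5 CD133+ EIF4G2KD, came from the CD133+ fractions of the same stable cells, and CD133+ Control replicate 3, which failed the authors' quality check, is not analysed here. The labels number 5 replicates per group, and the series description gives 4 independent experiments. No source used here says whether replicates were grown separately, and p-values therefore reflect only how far these libraries spread, which may be technical. With 1 shRNA and 1 stable population per arm, an effect of the EIF4G2 decrease cannot be told apart from other differences between the stable populations.

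EIF4G2, also known as DAP5, is a member of the eIF4G family that lacks the binding site for the cap-binding protein eIF4E and supports translation of a subset of mRNAs that initiate independently of that contact. Its direct action is on translation, whereas the counts analysed here are transcript levels. CD133, the product of PROM1, is a surface glycoprotein used to enrich tumour cells with stem-like properties, and the CD133-negative fraction is the bulk that lacks it. The question of the comparison was which transcripts differ in this bulk fraction when EIF4G2 is lowered.

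The CD133- Control libraries held 2592492 to 3805659 counts and the CD133- EIF4G2KD libraries 1679447 to 5234905. All 7 epithelial markers examined were present in the 10 libraries, with KRT18 between 1813 and 3374 CPM (counts normalized to library size with TMM factors) and EPCAM between 419 and 837. Their summed level was 4362 to 6252 CPM in CD133- Control and 5585 to 7427 in CD133- EIF4G2KD. Of 20 leukocyte markers 3 were in the table (CD8A, CD79A and CD68), with a summed level of 3.87 to 9.60 CPM in CD133- Control and 4.85 to 9.21 in CD133- EIF4G2KD. The other leukocyte markers, PTPRC among them, and the 10 fibroblast and 10 endothelial markers were not among the genes analysed here. PROM1, on the minus strand of chromosome 4 (15963076 to 16084378 of GRCh38), was at 1.84, 2.71, 3.31, 1.28 and 0.51 CPM in CD133- Control replicates 1 to 5 and at 1.49, 1.83, 1.40, 1.38 and 0.43 in CD133- EIF4G2KD. Every CD133- library was below the lowest of the 9 CD133+ libraries (11.6 CPM), and the PROM1 difference within CD133- cells did not pass the test (log2 fold change −0.50 with a standard error (SE) of 0.46, edgeR adjusted p = 0.56).

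Several libraries stood apart before any gene is considered. CD133- EIF4G2KD replicates 5, 4 and 2 lay at 72.7, 49.0 and 20.0 on the first principal component of all 19 libraries (25% of the variance), as did CD133+ EIF4G2KD replicate 3 at 25.6, whereas the highest of the other libraries was at 1.41. The library labelled CD133- Control replicate 2 did not stand out on that component, at −7.24, but it lay with the knock-down libraries at the genes that separated the 2 groups. When both libraries numbered 2 were left out of the fit, 192 of 10337 genes passed the call thresholds given below (1.86%), and in CD133- EIF4G2KD 88 of them were higher and 104 lower. At 159 of these 192 genes (82.8%) the library labelled CD133- Control replicate 2 was nearer to the mean of the other 4 CD133- EIF4G2KD libraries than to that of the other 4 CD133- Control libraries. It lay within the range of those EIF4G2KD libraries at 129 genes and within the range of those Control libraries at 36.

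**Figure D1:**
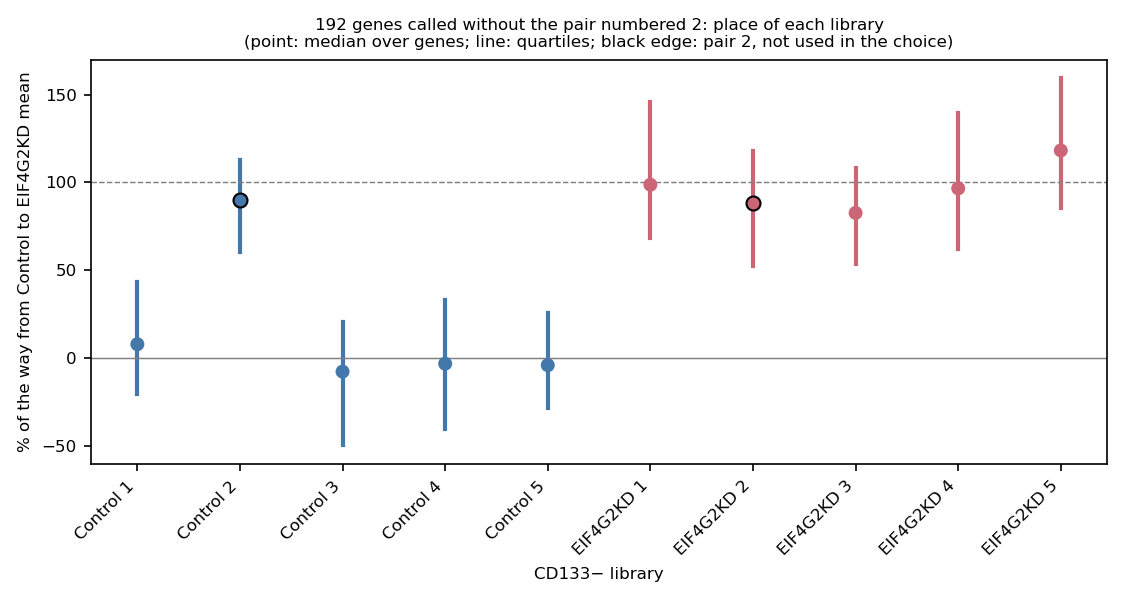
Place of each CD133- library between the mean of Control libraries (0%) and the mean of EIF4G2KD libraries (100%) on the log2 CPM scale. The means are over the 4 libraries of a group not numbered 2. Each of these was left out of the mean of its own group when placed. Points are medians over 192 genes and lines are quartiles. The genes were called without the pair numbered 2, so only the black-edged points were not used in the choice. Control replicate 2 lies at 90.1%, beside EIF4G2KD replicate 2 at 88.4%.

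Its median place was 90.1% of the way from Control to EIF4G2KD (quartiles 60.6% and 113%), and that of CD133- EIF4G2KD replicate 2 was 88.4%. The 4 Control libraries used in the choice lay between −7.54% and 8.05%, and the 4 EIF4G2KD libraries between 82.7% and 118%. For these places each library was left out of the mean of its own group. For EIF4G2 itself the library labelled CD133- Control replicate 2 was at 36.8% of the way, the lowest of the 5 Control libraries but above every EIF4G2KD library. Since the separation of replicate 2 is seen in the measured outcome, the values below use all 10 libraries. Values without this library are given for EIF4G2, for single genes it moves far, and for the counts and gene lists.

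EIF4G2 was lower in every knock-down library, to between 11.1% and 52.8% of the level of the Control library with the same number. The gene lies on the minus strand of chromosome 11 (10797050 to 10808940) and overlaps CTR9 on the plus strand. It was at 360, 193, 323, 245 and 333 CPM in CD133- Control replicates 1 to 5 (291 ± 69.5, SD, n = 5) and at 163, 102, 164, 51.1 and 36.8 in CD133- EIF4G2KD (103 ± 60.0, SD, n = 5). The groups did not overlap, and replicates 4 and 5 of EIF4G2KD were the lowest. The log2 fold change was −1.55 (SE 0.29, edgeR quasi-likelihood adjusted p = 0.018). The two-sided exact permutation test over the 10 libraries gave p = 0.0079, the smallest that 5 against 5 allow. That test did not keep libraries of the same number together, unlike the fit with the replicate block. Without CD133- Control replicate 2 the log2 fold change was −1.69 (edgeR adjusted p = 0.0048), and without CD133- EIF4G2KD replicates 4 and 5 it was −1.03 (edgeR adjusted p = 0.062).

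Across all genes, 80 of 10338 were called (0.774%), at the thresholds of the study (edgeR adjusted p under 0.05, an absolute log2 fold change over 0.58 and normalized counts averaging over 10). They were 31 higher (0.3% of the genes tested) and 49 lower (0.474%) in CD133- EIF4G2KD, with EIF4G2 among the lower ones. The decreases had a median log2 fold change of −1.25 (largest −2.35) and the increases one of 0.86 (largest 1.99), against 0.01 over all genes. Beyond a log2 fold change of 1 in size were 30 of the 49 lower and 10 of the 31 higher genes. Of the 80, 72 were protein-coding and 5 were long noncoding RNAs. The count depended on the block for the replicate number, on single libraries and on the CD133+ libraries in the fit. Without the block 1 gene was called, F2R. With the block 1953 genes (18.9%) had an unadjusted p below 0.05, against 1092 without it, and DESeq2 with the block called 179. No called gene kept its call in all 10 fits that left out 1 CD133- library; VSTM1 and LINC00431 kept it in 6 of them, the most of any gene. Without CD133- Control replicate 2, 233 genes were called (2.26%), 104 higher and 129 lower, and these included all 80. The change was of greater size without this library in 78 of the 80, with a median size of 1.20 against 1.02 on the log2 scale. Without CD133- Control replicate 1, 4 or 5 or CD133- EIF4G2KD replicate 1, no gene was called, although 1251 to 2147 genes had an unadjusted p below 0.05 in these fits, and the fit without CD133- EIF4G2KD replicate 3 called 390.

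**Figure D2:**
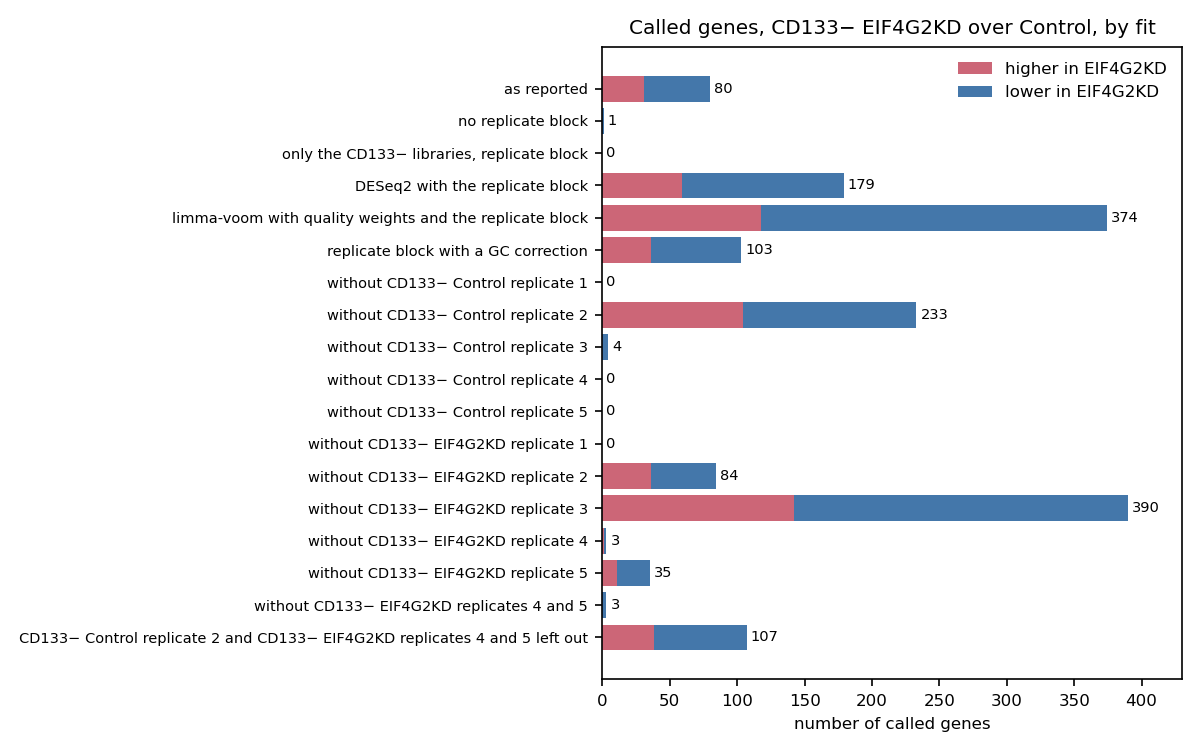
Number of genes called higher (red) and lower (blue) in CD133- EIF4G2KD than in CD133- Control, by fit, with the total beside each bar. The count is 80 as reported, 1 without the replicate block, 0 with only the 10 CD133- libraries (1785 at an unadjusted p below 0.05), and between 0 and 390 when 1 library is left out.

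The called genes moved the same way in the pairs numbered 1, 3, 4 and 5 and only weakly in the pair numbered 2. All 80 had the sign of the fit in each of those 4 pairs, and 63 had it in the pair numbered 2 as well, so that 63 of 80 had it in all 5 pairs, beside 16.8% of all genes. The same libraries chose the genes, so this count describes the calls and does not test them. The median size of the difference in the fitted direction was 1.02, 0.25, 0.94, 1.18 and 1.28 on the log2 scale in pairs 1 to 5. The SD of the differences over all genes was 0.40, 0.56, 0.46, 0.69 and 0.88. Pairs 4 and 5 had the widest spread of all genes. Their EIF4G2KD libraries had the least EIF4G2 and also lay highest on the first principal component. What widened the spread was not tested. In 19 of the 80 genes the 5 EIF4G2KD libraries did not overlap the 5 Control libraries, beside 1.45% of all genes.

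**Figure D3:**
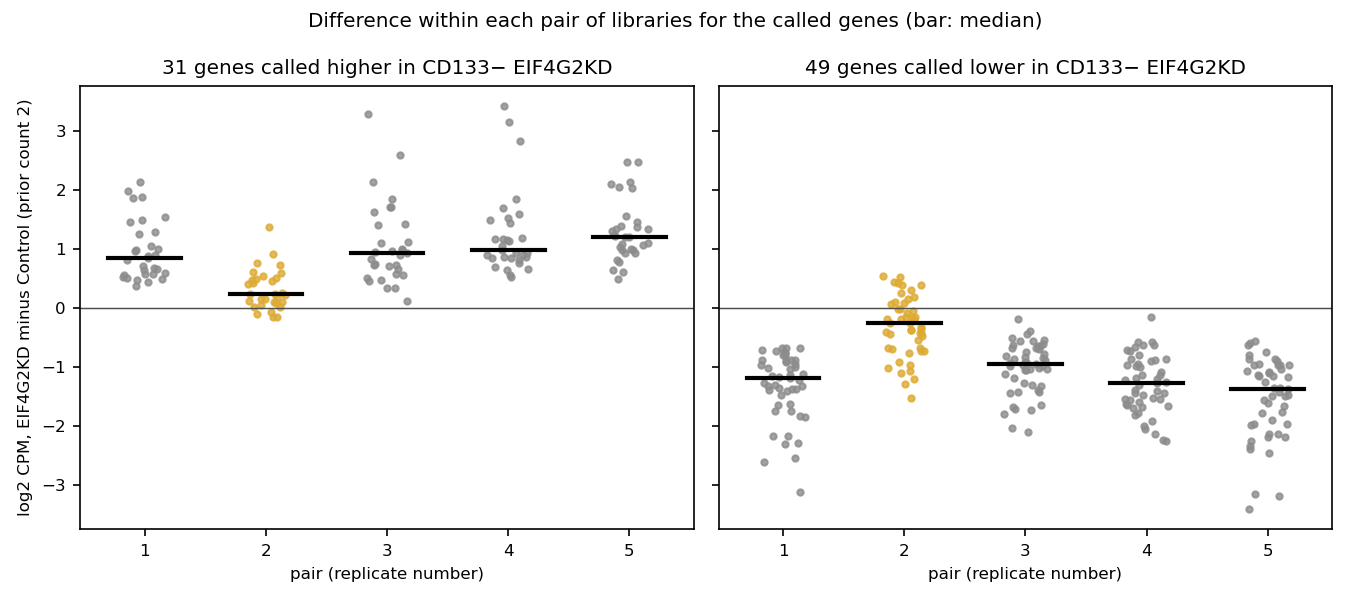
Log2 CPM of EIF4G2KD minus Control (prior count 2) within each pair of CD133- libraries, for the 31 genes called higher (left) and the 49 called lower (right); bars are medians. In the pair numbered 2 (yellow) the medians are 0.23 and −0.25, and 17 genes lie on the other side of 0, whereas in every other pair all 80 lie on the fitted side.

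The 17 genes that went the other way in the pair numbered 2 included the thrombin receptor gene F2R, the nuclear receptor gene PPARG, the LIM-domain gene FHL1, the interferon-induced GBP1 and IFI35, and SEMA3F and CYSRT1. In each of these 7 genes the library labelled CD133- Control replicate 2 lay outside the range of the other 4 Control libraries, on the side of the knock-down.

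F2R encodes PAR1, the receptor that thrombin opens by cutting its outer end, and lies on the plus strand of chromosome 5 (76716126 to 76735770). It was at 14.4, 2.32, 15.6, 12.2 and 16.7 CPM in CD133- Control replicates 1 to 5 and at 2.42, 3.66, 3.36, 2.30 and 1.28 in CD133- EIF4G2KD. Every EIF4G2KD library was below the Control libraries numbered 1, 3, 4 and 5, and Control replicate 2 lay at the level of the knock-down. The log2 fold change was −2.25 (SE 0.37, edgeR adjusted p = 0.015), and leaving out CD133- Control replicate 2 gave −2.50 (edgeR adjusted p = 3.7e-05). F2R was the only 1 of 15 measured genes of thrombin receptors, tissue factor and the plasminogen system with an adjusted p below 0.05. That threshold alone, which is used for all gene lists here, was met by 0.871% of all genes (0.358% higher, 0.513% lower). The median of the 15 was 0.13.

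PPARG encodes the nuclear receptor that drives lipid storage in fat cells and lies on the plus strand of chromosome 3 (12287368 to 12434356). It was at 25.7, 6.20, 26.8, 49.9 and 27.5 CPM in the CD133- Control libraries and at 2.42, 8.54, 9.51, 10.1 and 5.56 in CD133- EIF4G2KD. The 4 Control libraries other than replicate 2 were at 25.7 CPM or more, and no EIF4G2KD library passed 10.1. The log2 fold change was −2.0 (SE 0.33, edgeR adjusted p = 0.015), and −2.25 without CD133- Control replicate 2. ANGPTL4, a secreted inhibitor of lipoprotein lipase and a target gene of the PPAR receptors, was at 29.4, 7.74, 7.96, 8.00 and 16.4 CPM in the CD133- Control libraries and at 8.39, 3.66, 4.2, 2.30 and 10.7 in CD133- EIF4G2KD. It was lower in each pair although the groups overlapped (log2 fold change −1.23 with SE 0.28, edgeR adjusted p = 0.039). These were the 2 of 17 measured genes of PPARG and lipid storage that passed, both lower, beside a median of −0.10 over the list. Outside the list, called genes went both ways. APOC1, an apolipoprotein gene named after its value was seen, was lower (log2 fold change −1.23, edgeR adjusted p = 0.024). SLC27A5, a bile acyl-CoA synthetase gene, was higher in each pair (log2 fold change 0.80, edgeR adjusted p = 0.018).

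**Figure D4:**
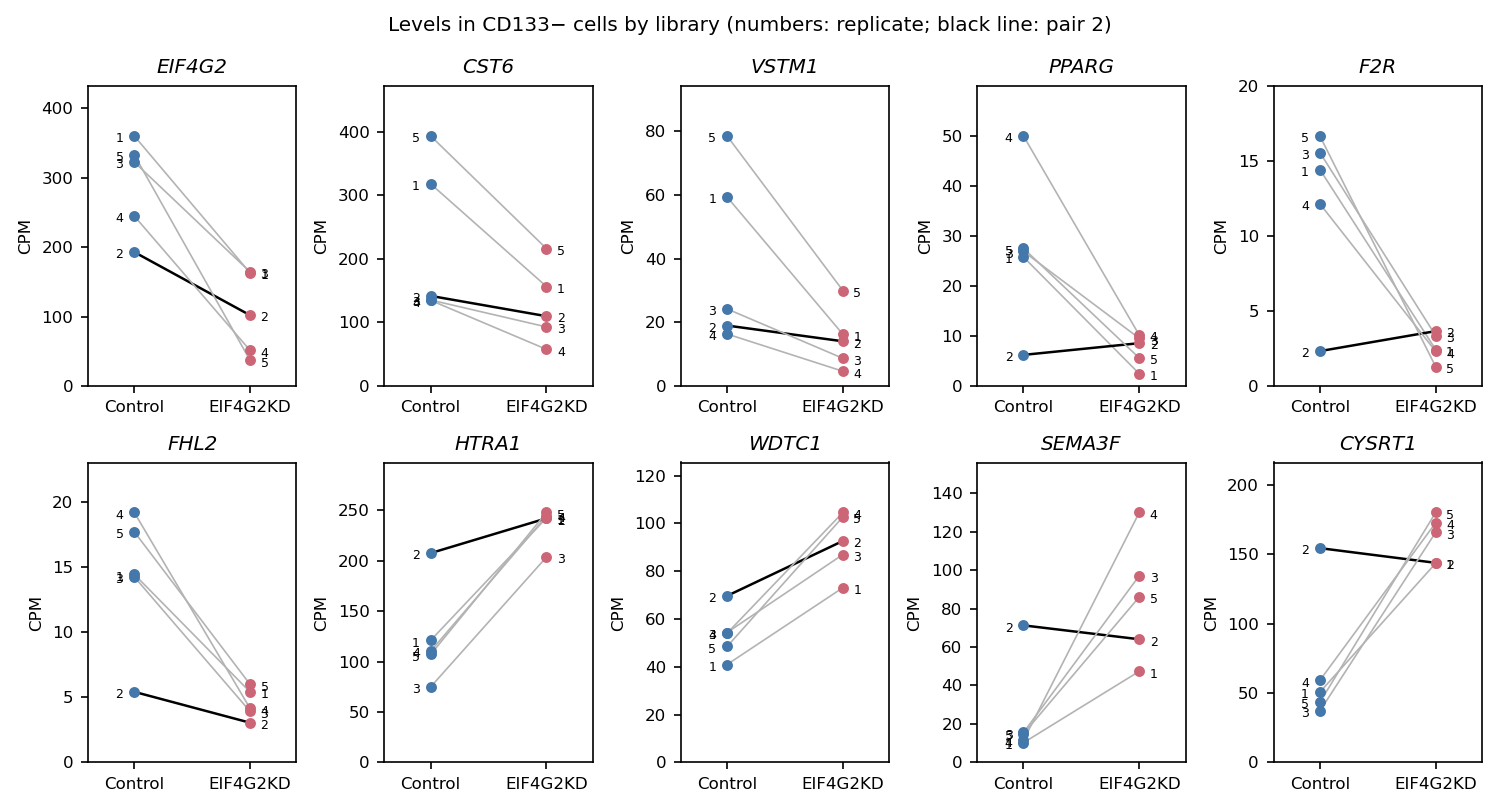
CPM of 10 genes in each CD133- library, with lines joining the Control (blue) and EIF4G2KD (red) library of the same number; the numbers are replicates and the black line is the pair numbered 2. In F2R, PPARG, FHL2, SEMA3F and CYSRT1 the blue point of replicate 2 lies at the level of the red points, while for EIF4G2 it lies above all of them.

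Genes of the contractile cytoskeleton that serum response factor (SRF) controls gave 3 decreases and no increase among 28 measured members, with a list median of −0.02. At an unadjusted p below 0.05 the list had 4 members higher and 4 lower. FHL2 and FHL1 encode 4-and-a-half LIM domain scaffolds that bind actin structures and transcription factors, and TPM4 encodes a tropomyosin that coats actin filaments. FHL2, on the minus strand of chromosome 2 (105357712 to 105438513), was at 14.4, 5.42, 14.3, 19.2 and 17.7 CPM in the CD133- Control libraries and at 5.41, 3.05, 3.92, 4.15 and 5.99 in CD133- EIF4G2KD. The EIF4G2KD libraries were 5.99 CPM or lower, and of the Control libraries replicate 2 alone fell within their range. The log2 fold change of FHL2 was −1.59 (SE 0.28, edgeR adjusted p = 0.016). FHL1, on chromosome X (136146702 to 136211359), was at 25.2, 8.13, 37.1, 67.2 and 31.3 CPM in the CD133- Control libraries and at 7.65, 12.2, 17.9, 17.5 and 6.42 in CD133- EIF4G2KD. It was lower in 4 of 5 pairs (log2 fold change −1.43 with SE 0.29, edgeR adjusted p = 0.025). TPM4 was at 504, 344, 460, 432 and 390 CPM in the CD133- Control libraries and at 310, 299, 334, 247 and 267 in CD133- EIF4G2KD. These groups did not overlap, and at a fitted log2 difference of −0.55 (standard error 0.10, edgeR adjusted p = 0.018) TPM4 missed the fold threshold of the calls.

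SRF binds DNA at the CArG box (CC, 6 bases of A or T, GG), and the stretches just before the start sites of these 3 genes are shown because each holds one, in capitals. They are the 200 bases before a RefSeq start site (GRCh38.p14), 5' to 3' on the strand of the gene, at chr2:105438514-105438713 (minus strand), chrX:136196847-136197046 and chr19:16067338-16067537.
FHL2: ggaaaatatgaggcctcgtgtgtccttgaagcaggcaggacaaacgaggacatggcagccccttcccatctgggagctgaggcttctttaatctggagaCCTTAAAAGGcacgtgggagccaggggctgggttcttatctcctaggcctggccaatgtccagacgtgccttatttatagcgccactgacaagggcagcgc
FHL1: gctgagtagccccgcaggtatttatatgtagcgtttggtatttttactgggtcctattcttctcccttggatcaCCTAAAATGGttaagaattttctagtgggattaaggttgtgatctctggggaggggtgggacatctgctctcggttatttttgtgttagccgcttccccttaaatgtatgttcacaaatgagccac
TPM4: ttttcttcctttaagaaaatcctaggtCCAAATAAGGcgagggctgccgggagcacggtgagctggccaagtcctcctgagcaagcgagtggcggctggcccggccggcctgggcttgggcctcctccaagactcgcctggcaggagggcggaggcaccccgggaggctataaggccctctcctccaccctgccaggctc
The match began 101 bases before the start site in FHL2, 126 in FHL1 and 173 in TPM4. Where a gene has several start sites the first with a match is shown: 3 of 4 windows of FHL2, 1 of 12 of FHL1 and 1 of 3 of TPM4 held one. Of 35116 RefSeq windows of 300 bases (250 before the start site and 50 from it), 1.29% held the motif on either strand. A match is a sequence feature and no measurement of SRF binding.

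Of 37 measured genes of interferon response and antigen presentation, 3 were lower and none was higher, and the median of the list was −0.05. IFI27, a mitochondrial and nuclear-envelope protein gene strongly induced by type I interferon, was at 7.09, 2.71, 7.96, 13.1 and 9.50 CPM in the CD133- Control libraries and at 2.80, 1.83, 3.64, 5.07 and 3.00 in CD133- EIF4G2KD. It was lower in each pair, and only replicate 2 of the Control libraries lay within the EIF4G2KD range (log2 fold change −1.29 with SE 0.24, edgeR adjusted p = 0.018). GBP1, an interferon-induced large GTPase, was at 7.88, 5.03, 11.6, 21.1 and 10.3 CPM in the CD133- Control libraries and at 2.80, 5.49, 6.15, 6.45 and 2.14 in CD133- EIF4G2KD. IFI35 was at 54.4, 41.8, 86.8, 90.9 and 63.9 CPM in the CD133- Control libraries and at 33.8, 43.9, 55.7, 48.4 and 35.1 in CD133- EIF4G2KD. Both were lower in the 4 pairs other than the one numbered 2 (log2 fold changes −1.32 and −0.64, edgeR adjusted p = 0.028 and 0.036). At an unadjusted p below 0.05, 8 of the 37 were lower and none was higher, beside 9.67% and 9.22% of all genes. This was not particular to the list. Of 28 measured genes of NF-kB and chemokines 10 were lower and 3 higher at that threshold, and of 22 measured p53 targets 7 were lower and 1 higher. CD74, the invariant chain of MHC class II, which is not in the list and was named after its value was seen, was also lower (log2 fold change −0.68, edgeR adjusted p = 0.031).

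The factors that interferons activate bind the interferon-stimulated response element (ISRE), searched here on both strands as GAAA, any 2 bases and GAAA. The 200 bases before the start sites of the 3 genes are shown with matches in capitals, from chr14:94110536-94110735 (plus strand), chr1:89065209-89065408 (minus strand) and chr17:43006584-43006783 (plus strand).
IFI27: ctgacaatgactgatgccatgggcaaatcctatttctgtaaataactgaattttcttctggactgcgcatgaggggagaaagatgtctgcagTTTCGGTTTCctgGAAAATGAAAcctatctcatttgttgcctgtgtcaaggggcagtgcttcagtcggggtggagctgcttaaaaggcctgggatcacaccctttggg
GBP1: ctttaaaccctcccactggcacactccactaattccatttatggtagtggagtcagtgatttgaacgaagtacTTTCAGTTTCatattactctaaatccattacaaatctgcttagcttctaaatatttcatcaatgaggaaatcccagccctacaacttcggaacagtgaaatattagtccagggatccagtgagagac
IFI35: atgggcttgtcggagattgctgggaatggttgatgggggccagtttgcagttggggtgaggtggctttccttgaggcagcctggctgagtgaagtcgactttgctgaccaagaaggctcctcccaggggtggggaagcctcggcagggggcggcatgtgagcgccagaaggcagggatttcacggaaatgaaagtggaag
IFI27 held 2 matches, beginning 108 and 95 bases before the start site, GBP1 held 1, beginning 127 bases before it, and IFI35 held none with these letters. The motif was in 3.57% of the 35116 windows, and in this case too a match is no measurement of binding.

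Among the other decreases, several were in secreted or surface proteins. VSTM1, an inhibitory receptor known from myeloid cells, was at 59.4, 19, 24.2, 16.3 and 78.5 CPM in the CD133- Control libraries and at 16.2, 14.0, 8.67, 4.61 and 30.0 in CD133- EIF4G2KD. In both groups replicates 1 and 5 were the highest, so the groups overlapped, and the knock-down was the lower in each pair (log2 fold change −1.43 with SE 0.20, edgeR adjusted p = 0.0074). CST6, cystatin E/M, which inhibits cysteine proteases such as legumain, showed the same shape, at 318, 142, 135, 135 and 393 CPM in the CD133- Control libraries and at 156, 110, 92.9, 57.6 and 216 in CD133- EIF4G2KD. The groups overlapped, yet each pair was lower (log2 fold change −0.81 with SE 0.12, edgeR adjusted p = 0.011). CST6 was the 1 decrease and HTRA1 the 1 increase among 28 measured secreted proteases, cystatins and inhibitors, and VSTM1 was the 1 decrease in a list of 28 genes of NF-kB and chemokines, where it stood as an immune receptor and not as a known NF-kB target.

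NID2, which encodes the basement membrane linker nidogen 2, had the largest fitted decrease of the called genes. It was at 9.45, 1.16, 5.64, 5.76 and 8.47 CPM in the CD133- Control libraries and at 1.12, 0.61, 0.84, 2.30 and 1.28 in CD133- EIF4G2KD. Apart from Control replicate 2 the groups did not overlap, and the log2 fold change was −2.35 (SE 0.47, edgeR adjusted p = 0.025). It was the only 1 of 21 measured matrix genes that passed edgeR's test, and none of 12 integrin genes passed (list median −0.31). NID2 had a mean normalized count of only 14.3, and DESeq2 gave it no adjusted p. Of the matrix genes DESeq2 passed LAMC1 alone, which was higher. CCN1, a matricellular protein gene and a standard target of YAP and TEAD, was at 927, 641, 663, 574 and 1500 CPM in the CD133- Control libraries and at 496, 538, 451, 293 and 478 in CD133- EIF4G2KD. These groups did not overlap (log2 fold change −0.84 with SE 0.18, edgeR adjusted p = 0.035). With GADD45A, a stress-induced growth arrest gene (log2 fold change −0.78, edgeR adjusted p = 0.016), it made 2 decreases of 22 measured YAP and TEAD targets, beside a list median of −0.20. GADD45A was also the only gene of 22 measured p53 targets that passed.

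IL1RAPL1, a synaptic adhesion molecule of the interleukin-1 receptor family, on the plus strand of chromosome X (28587446 to 29956718), was at 9.98, 5.03, 12.3, 12.8 and 11 CPM in the CD133- Control libraries and at 1.12, 1.83, 3.08, 3.22 and 4.28 in CD133- EIF4G2KD. It was among the called genes without overlap (log2 fold change −2.0 with SE 0.35, edgeR adjusted p = 0.016). With VSTM1 and SERTAD4-AS1, a long noncoding RNA that overlaps SERTAD4 on the other strand, it was 1 of the 3 genes still called without CD133- EIF4G2KD replicates 4 and 5 (log2 fold changes −2.39, −1.48 and −1.15, edgeR adjusted p = 0.039 each). LINC00431, annotated as a transcribed pseudogene on chromosome 13 (110989980 to 110990138), was at 18.9, 5.81, 19.2, 32.0 and 22.8 CPM in the CD133- Control libraries and at 4.85, 2.44, 9.51, 9.67 and 3.85 in CD133- EIF4G2KD. Replicate 2 of the Control libraries was the only one within the EIF4G2KD range (log2 fold change −1.69 with SE 0.24, edgeR adjusted p = 0.0074). ELFN2, a leucine-rich repeat membrane protein gene, and FBXO2, the F-box subunit of a ubiquitin ligase that reads glycoproteins, had log2 fold changes of −1.35 and −1.28. KLHL13, a substrate adaptor of the CUL3 ubiquitin ligase, was at 4.65 to 8.95 CPM in the CD133- Control libraries and at 0.86 to 3.36 in CD133- EIF4G2KD, without overlap (log2 fold change −1.52, edgeR adjusted p = 0.018).

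TNNT1, the troponin T of slow skeletal muscle, was at 323, 155, 328, 341 and 337 CPM in the CD133- Control libraries and at 161, 121, 180, 198 and 193 in CD133- EIF4G2KD. The Control libraries other than replicate 2 lay between 323 and 341 CPM, and replicate 2 was within the EIF4G2KD range (log2 fold change −0.78 with SE 0.14, edgeR adjusted p = 0.016). SPEG, a kinase gene of striated muscle, was lower as well, at 21.5, 7.36, 26.5, 25.9 and 16.7 CPM in CD133- Control against 7.28 to 10.6 in CD133- EIF4G2KD (log2 fold change −1.18 with SE 0.22, edgeR adjusted p = 0.018). TMOD1, a tropomodulin gene named after its value was seen, was called in the other direction (log2 fold change 1.14). These genes are not one of the gene lists.

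The increases were smaller. WDTC1, a WD40-repeat protein of a CUL4 ubiquitin ligase, was at 41.0, 69.7, 54.4, 54.1 and 48.5 CPM in the CD133- Control libraries and at 73.1, 92.7, 87.0, 105 and 103 in CD133- EIF4G2KD. The groups did not overlap (log2 fold change 0.79 with SE 0.13, edgeR adjusted p = 0.015). HTRA1, which encodes a secreted serine protease, was at 121, 208, 74.9, 110 and 107 CPM in the CD133- Control libraries and at 242, 242, 204, 244 and 248 in CD133- EIF4G2KD. The fitted fold was 1.98, and of the Control libraries replicate 2 alone reached the narrow range of the knock-down (log2 fold change 0.99 with SE 0.17, edgeR adjusted p = 0.016). PLEKHA1, a phosphoinositide-binding adaptor gene, lies beside HTRA1 on the plus strand of chromosome 10 (122374696 to 122432354, with HTRA1 at 122458551 to 122514907) and was higher in each pair (log2 fold change 0.68, edgeR adjusted p = 0.016). ABHD8, a hydrolase-fold protein gene that overlaps DDA1 and MRPL34 on the other strand, was at 31.2 to 39.9 CPM in the CD133- Control libraries and at 54.9 to 64.0 in CD133- EIF4G2KD, without overlap (log2 fold change 0.70, edgeR adjusted p = 0.016). PHETA1, an adaptor of endosomal traffic, did not overlap between the groups either (6.30 to 16.3 against 16.5 to 35.0 CPM, log2 fold change 1.08).

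HOXA5, a homeobox transcription factor gene, was at 23.9, 75.9, 42.4, 43.5 and 44.4 CPM in the CD133- Control libraries and at 66.9, 109, 83.6, 97.7 and 85.6 in CD133- EIF4G2KD. Control replicate 2 was the highest of its group and within the EIF4G2KD range (log2 fold change 0.98 with SE 0.19, edgeR adjusted p = 0.018). HOXA5 lies within HOXA3 on the same strand and beside HOXA-AS3 on the other, so its counts may include theirs. FOXC1, a forkhead transcription factor gene, had a log2 fold change of 1.06 (edgeR adjusted p = 0.027) and WNT7B, a WNT ligand gene, one of 0.73 (edgeR adjusted p = 0.019). MSMP, a small secreted protein gene, was at 11.3, 45.7, 2.98, 3.84 and 15.1 CPM in the CD133- Control libraries and at 43.3, 46.3, 35.0, 39.2 and 86.9 in CD133- EIF4G2KD. Replicate 2 of the Control libraries was at the knock-down level and the other 4 were below it, and without it the log2 fold change was 2.63 (with it 1.93 with SE 0.38, edgeR adjusted p = 0.022). TERC, the RNA template of telomerase, and SCARNA22, a small Cajal body RNA inside an NSD2 gene body, had log2 fold changes of 1.57 and 1.67 (edgeR adjusted p = 0.018 and 0.015). Their mature forms carry no poly(A) tail, which the assay selects for. For both, Control replicate 2 was the highest of its group, at 16.3 and 19.7 CPM, against 1.84 to 8.62 and 1.58 to 6.40 in the other 4.

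SEMA3F, CYSRT1 and PTPRU were not named by the rule and were picked after their values were seen. SEMA3F, a secreted semaphorin, had the largest fitted increase. It was at 10.2, 71.2, 15.6, 11.5 and 14.9 CPM in the CD133- Control libraries and at 47.4, 64.0, 97.1, 130 and 86.0 in CD133- EIF4G2KD (log2 fold change 1.99 with SE 0.38, edgeR adjusted p = 0.018). Without CD133- Control replicate 2, whose level was inside the knock-down range, the log2 fold change was 2.69 (edgeR adjusted p = 1.5e-05). CYSRT1, a cysteine-rich protein gene of epithelia, was at 50.7, 154, 37.1, 59.2 and 43.4 CPM in the CD133- Control libraries and at 144, 144, 166, 173 and 180 in CD133- EIF4G2KD. Here too only Control replicate 2 was in the knock-down range (log2 fold change 1.35, and 1.78 without that library). ROBO1 and ROBO3, guidance receptor genes of the ROBO family named after their values were seen, were lower, with log2 fold changes of −1.25 and −1.31 (edgeR adjusted p = 0.035 and 0.048).

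S100A4, a calcium-binding protein gene linked to motility, was the 1 of 4 measured mesenchymal genes that passed, at 1224 to 1838 CPM in CD133- Control and 1423 to 3267 in CD133- EIF4G2KD (log2 fold change 0.56, edgeR adjusted p = 0.048). It missed the fold threshold of the calls, and the list median was −0.75. At an unadjusted p below 0.05, 1 of the 4 was higher and 2 were lower. DESeq2 gave an adjusted p below 0.05 to S100A4, higher, and to L1CAM, lower. ALDH4A1, a mitochondrial enzyme gene of proline breakdown, was the 1 of 21 measured aldehyde dehydrogenase and retinoid genes that passed, at 13.6 to 24.8 CPM in CD133- Control and 27.7 to 33.6 in CD133- EIF4G2KD, without overlap (log2 fold change 0.61, edgeR adjusted p = 0.035). ALDH1A1, an aldehyde dehydrogenase read as a stem cell marker, was at 33.6 to 48.1 and 39.2 to 57.6 CPM and did not pass (log2 fold change 0.19 with SE 0.13, edgeR adjusted p = 0.43). None of 13 measured stem and aggressiveness markers, of 9 Mullerian and endometrial epithelial genes, or of 31 epithelial adhesion and keratin genes passed edgeR's test. DESeq2 gave CD24, KLF4 and CLDN3 of these an adjusted p below 0.05 (edgeR log2 fold changes 0.71, −0.63 and 0.51, adjusted p = 0.07, 0.082 and 0.057). In edgeR's fit without CD133- Control replicate 2 the same genes passed, with log2 fold changes of 0.81, −0.69 and 0.68 (edgeR adjusted p = 0.028, 0.044 and 0.00063).

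Of the translation genes, PAIP2 was the 1 beside EIF4G2 that passed. PAIP2, which binds poly(A)-binding protein and represses translation, belongs to the list of eIF4G-family and cap-complex genes, of which 16 were measured. It was at 102, 83.2, 87.5, 93.4 and 107 CPM in the CD133- Control libraries and at 57.8, 51.8, 61.8, 33.2 and 47.1 in CD133- EIF4G2KD. The groups were apart, Control replicate 2 included (log2 fold change −0.90 with SE 0.16, edgeR adjusted p = 0.016). No gene passed edgeR's test among 35 other translation factors, 76 cytosolic and 71 mitochondrial ribosomal protein genes, 43 proteasome subunits, and 11 genes described as translation targets of EIF4G2. The medians of these 5 lists lay between −0.03 and 0.06. At transcript level the kinesin-1 motor genes, examined because the study followed their proteins, did not pass either. KIF5B, the heavy chain, was at 32.8, 37.9, 30.5, 34.9 and 32.6 CPM in the CD133- Control libraries and at 30.8, 14.6, 36.9, 4.61 and 2.14 in CD133- EIF4G2KD. Only replicates 2, 4 and 5 of EIF4G2KD, the libraries apart on the first principal component, were below the Control range (log2 fold change −1.01 with SE 0.37, edgeR adjusted p = 0.17), and without replicates 4 and 5 the log2 fold change was −0.30. The light chains KLC1, KLC2 and KLC3 had log2 fold changes of 0.31, 0.29 and −0.74 (edgeR adjusted p = 0.17, 0.28 and 0.057). KLC3 had the lower value in each pair and passed without CD133- Control replicate 2 (−0.87, edgeR adjusted p = 0.0076). Of 29 other motor and tubulin genes, KIF3A, the kinesin-2 motor of cilia, was lower (4.65 to 7.09 against 0.43 to 3.92 CPM, without overlap, log2 fold change −1.56, edgeR adjusted p = 0.037).

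With all 10 libraries the remaining lists had no member that passed: 71 genes of oxidative phosphorylation, 36 of the integrated stress and unfolded protein responses, 27 chaperones, 32 of sterol and fatty acid synthesis, 32 of glycolysis and hypoxia, 53 of the cell cycle, 38 of double-strand break repair, 26 immediate early genes, 15 TGF-beta and BMP targets, 16 WNT and NOTCH targets, 26 NRF2 targets, and 9 metallothionein and glucocorticoid genes. Over the 22 lists in which none passed, 678 genes were measured, and 60 were higher and 72 lower at an unadjusted p below 0.05. DESeq2 with the same block gave an adjusted p below 0.05 to 11 of the 678, with CD24, CLDN3, EIF1B and CA12 higher and KLC3, KLF4, RPL39, STC2, EPAS1, CRYAB and EIF3J lower. In the lists where edgeR passed a member, DESeq2 added LAMC1 and SLPI, higher, and ACSL4, L1CAM, CXCL1, PMAIP1 and RDH11, lower. In edgeR's fit without CD133- Control replicate 2, 13 of the 678 passed, 4 higher and 9 lower. They were CLDN3, CD24, UQCR10 and ID1 among the higher and EPAS1, KLC3, MT2A, NOTCH3, CRYAB, STC2, MT1X, KLF4 and LTBP2 among the lower. EPAS1, which encodes the hypoxia-inducible factor HIF-2 alpha, had a log2 fold change of −1.14 there (edgeR adjusted p = 0.0024), and the metallothionein genes MT2A and MT1X had −0.88 and −1.34 (edgeR adjusted p = 0.020 and 0.042). The called genes had GC-richer transcripts than the rest, with a median of 55.9% for the higher and 52.9% for the lower genes against 49.5% for all. Within pairs the rank correlation of the log2 difference with transcript GC over all genes was 0.05, −0.02, 0.31, 0.28 and 0.33, as a description, since genes of a library share its depth and composition. With a correction for GC chosen after these values were seen, 103 genes were called, 75 of the 80 among them.

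In CD133+ cells, 63 of the 80 genes had a fitted change of the same sign, beside 60.1% of all genes, and 33 also passed there with that sign, beside 10.1% of all genes. The test of the difference between the 2 knock-down effects passed for 23 of the 80, beside 6.56% of all genes, and both effects are measured against separate controls. The CD133- effect that chose the 80 genes is part of this difference, so the count describes them and does not test them. For 16 of the 23 the fitted sign was opposite in CD133+ cells, for 4 it was the same and smaller, and for 3 it was the same and larger. CYSRT1, PTPRU, a receptor tyrosine phosphatase gene, and MSMP passed in both with opposite signs. In CD133+ Control, CYSRT1 was at 58.0 ± 4.46 CPM (SD, n = 4), and it was at 15.4 ± 3.30 in CD133+ EIF4G2KD (SD, n = 5), a log2 fold change of −1.92 against 1.35 in CD133- cells (difference −3.28, standard error 0.39, edgeR adjusted p = 4.9e-05). PTPRU was at 60.6 ± 24.1 and 11.4 ± 4.08 CPM there, a log2 fold change of −2.39 against 0.95 (difference −3.34, standard error 0.32, edgeR adjusted p = 5.4e-06).

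IFI27 was lower in CD133- and had a log2 fold change of 0.74 in CD133+ cells that did not pass (edgeR adjusted p = 0.056), and the difference of 2.03 passed (standard error 0.35, edgeR adjusted p = 0.0016). TNNT1 (0.97), SPEG (1.34), ELFN2 (1.88) and KIF3A (1.82) had positive differences that passed as well, and their effects in CD133+ cells, at 0.19, 0.16, 0.52 and 0.26, did not pass. CST6 fell in both and further in CD133+ cells (−1.88 against −0.81, difference −1.07, standard error 0.18, edgeR adjusted p = 0.0014). For PPARG (−2.72 in CD133+ cells), FHL1 (−2.62), NID2 (−3.64), VSTM1 (−1.59) and LINC00431 (−1.96) the decrease passed in both, and the difference did not (edgeR adjusted p = 0.11 to 0.83). The EIF4G2 decrease itself was −0.48 in CD133+ cells (edgeR adjusted p = 0.30), and its difference from CD133- cells was 1.07 (standard error 0.41, edgeR adjusted p = 0.13). These comparisons carry all 10 CD133- libraries, CD133- Control replicate 2 included.

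**Figure D5:**
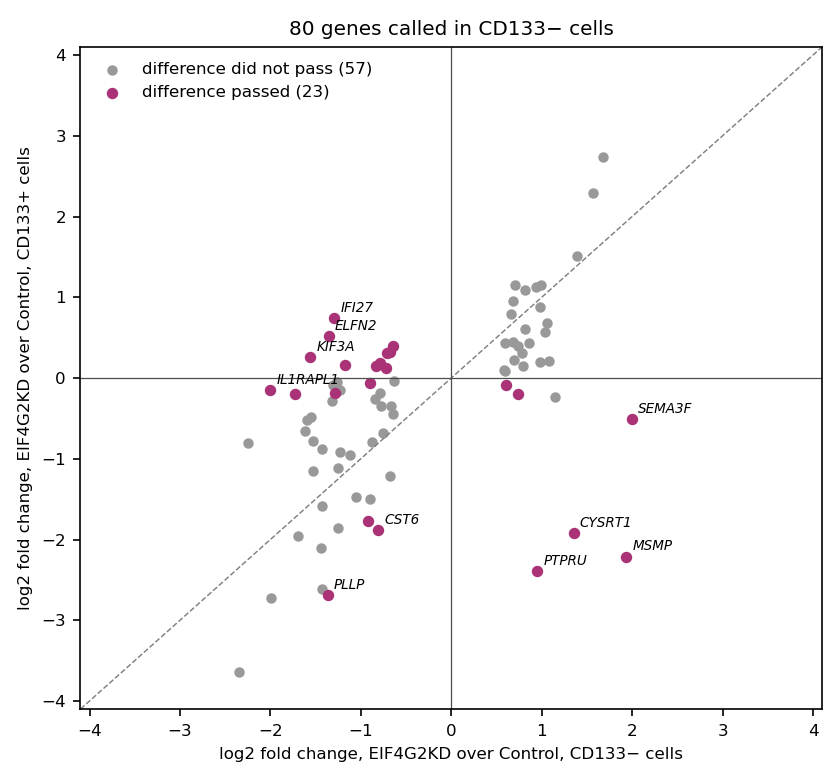
Log2 fold change of EIF4G2KD over Control in CD133- cells (x) and in CD133+ cells (y) for the 80 genes called in CD133- cells, each point a gene; the dashed line marks equal effects. The 23 genes whose difference passed (purple) include CYSRT1, PTPRU, MSMP and SEMA3F at the lower right, positive in CD133- and negative in CD133+ cells.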

How the data were processed

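The 10 CD133- libraries were analysed in one model with the 9 CD133+ libraries. According to the submitters' processing notes and the methods of the study, cutadapt was used for trimming, STAR 2.4.2a for alignment (hg38, with mm10 listed too) and HTSeq for counting 3' ends per gene; whether strand was used is not given in the sources used here. The authors deposited whole-number counts per gene, which were used as deposited. The same table holds the authors' normalized values, fold changes and p-values, which were not used. Each of the 12558 genes of the table reached a count of 6 or more in some library; 12144 matched GENCODE 44 (11957 by symbol), from which positions come. Depth over all libraries was 1679447 to 5234905 counts per library.

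The edgeR filter on low counts (at least 10, and 15 in total) left 10338 genes. Counts were scaled by TMM and tested with edgeR 4.0.16 in R 4.3.3 by the quasi-likelihood F test, with a mean per population and the replicate number as a block (11 residual degrees of freedom); p-values were adjusted by Benjamini-Hochberg over all genes tested. Calls used the study's thresholds (adjusted p below 0.05, log2 fold change beyond 0.58, mean normalized count above 10). The comparison was defined with the replicate number as a block. Deviations of CD133- libraries of the same number from their group means had correlations of 0.48, 0.16, 0.33, 0.52 and 0.29 for replicates 1 to 5. Libraries of unlike numbers had −0.40 to 0.23, a range that holds the value of replicate 2. The labels give the numbers but no shared day or culture. CPM values carry TMM factors; log2 values within pairs had a prior count of 2, with a pseudocount of 0.5 CPM for the place of a library. No 2 CD133- libraries of a group were duplicates, with a chi-square of 5.68 to 24.3 per degree of freedom.

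Named genes are EIF4G2, PROM1, ALDH1A1, KIF5B and KLC1 to KLC3; of the called genes with 1 sign in 5 of 5 pairs, the 12 higher and the 15 lower with the smallest p; any called in every fit without 1 CD133- library; and per list up to 4 members past the adjusted p, or else the 1 with the smallest p. The members, lists and rule were chosen with earlier results of these data known. The model was tested on simulated data. Alternatives were DESeq2 1.42.0, limma 3.58.1 (voom with quality weights), other scaling and filtering, no block, and left-out libraries; 4 more, chosen after seeing the data, left out libraries that stood apart or corrected for GC. Promoter sequences are RefSeq's (GRCh38.p14). Figures used Python 3.11.15 and matplotlib 3.10.9.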

Additional observations from a re-analysis of the deposited data

Results flagged for a closer look

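Among 136 groups of 5 CD133- libraries, 10 had a highest or lowest library far from the rest (gap over range above 0.71), where chance gives about 1 in 20. Of the 10, 6 were the library labelled CD133- Control replicate 2: SEMA3F at 71.2 CPM, CYSRT1 at 154, MSMP at 45.7, SCARNA22 at 19.7 and EIF1B, a translation initiation factor gene, at 66.2 were above the other Control libraries, and TNNT1 at 155 was below them. For SEMA3F, CYSRT1, MSMP, SCARNA22 and TNNT1 this library lay within the range of the 5 CD133- EIF4G2KD libraries, and the EIF4G2 level of the same library (193 CPM) lay outside that range. Many of the named genes were picked by their values in these libraries, and SEMA3F and CYSRT1 were added after their values were seen. The flags therefore describe these genes and do not test the library. What sets this library apart was not tested. The other 4 were HTRA1 at 204 CPM in CD133- EIF4G2KD replicate 3 (lowest), SLC27A5, a bile acyl-CoA synthetase gene, at 156 in CD133- EIF4G2KD replicate 5 (highest), MSMP at 86.9 in the same library (highest) and PAX2, a Mullerian transcription factor gene, at 18.9 in CD133- Control replicate 3 (lowest).

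For 17 named genes the knock-down effect differed between CD133+ and CD133- cells by the interaction term of the edgeR fit. Many of these genes were named for their change in CD133- cells, which is part of this difference. Given as the log2 effect in CD133+ minus that in CD133- cells, the difference was negative for MSMP (−4.15), PTPRU (−3.34), CYSRT1 (−3.28), SEMA3F (−2.50), CST6 (−1.07), WNT7B (−0.93), SERTAD4-AS1 (−0.85) and ALDH4A1 (−0.69). It was positive for ALDH1A1 (2.17), IFI27 (2.03), ELFN2 (1.88), IL1RAPL1 (1.85), KIF3A (1.82), SPEG (1.34), FBXO2 (1.1), TNNT1 (0.97) and PAIP2 (0.83). For ALDH1A1 the change was in CD133+ cells, where the Control libraries averaged 24.2 ± 1.93 CPM (SD, n = 4) and the EIF4G2KD libraries 124 ± 10.3 (SD, n = 5).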

How the results depend on the processing

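The count of 80 called genes (31 higher, 49 lower) moved with the test and the libraries. DESeq2 with the block called 179 (59 higher, 120 lower), 77 of the 80 among them, and limma-voom with quality weights 374 (118 higher, 256 lower), 78 of the 80 among them. RLE scaling gave 81 and no filter 83. Without the replicate block 1 gene was called (0 higher, 1 lower), and with only the 10 CD133- libraries and the block 0 were called (0 higher, 0 lower; 1785 at an unadjusted p below 0.05). Leaving out 1 library or 1 pair gave 0 to 390 called genes, 0 to 142 higher and 0 to 248 lower. Without CD133- EIF4G2KD replicates 4 and 5 it was 3 (0 higher, 3 lower), and 0 (0 higher, 0 lower) when the block was dropped too. In settings chosen after seeing the data, 59 were called with neither the block nor CD133- Control replicate 2, 107 with the block and without that library and EIF4G2KD replicates 4 and 5 (60 of the 80 among them), and 103 with a GC correction. For EIF4G2, whose main value was −1.55 (edgeR adjusted p = 0.018), the log2 fold change was −1.48 without the replicate block (edgeR adjusted p = 0.12) and −1.65 with only the CD133- libraries (0.10). It was −1.03 without EIF4G2KD replicates 4 and 5 (0.062), −1.01 when the block was dropped as well (0.54), and −1.89 to −1.25 when 1 library or pair was left out. In those fits it passed without CD133- Control replicate 2, EIF4G2KD replicate 2, 3 or 5, or the pair numbered 2 or 3. It did not pass without Control replicate 1, 3, 4 or 5 or EIF4G2KD replicate 1 or 4 (edgeR adjusted p = 0.051 to 0.083), nor without the pair numbered 1, 4 or 5 (0.085 to 0.137). Over the named genes and all settings, 1098 values kept direction and side of the threshold, 564 lost and 73 gained it, and 1 reversed, PSMA3 with the GC correction (from −0.35 to 0.0046). DESeq2 gave no adjusted p for NID2, KIF3A and LTBP2. Leaving out libraries makes the groups smaller, and the cause of these shifts was not tested. Depth, at a median of 3145045 counts in CD133- Control and 2537807 in CD133- EIF4G2KD, leaves genes of a few CPM with few reads per library.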

Other observations

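Of the 49 genes called lower, 37 matched a RefSeq promoter by symbol, and 5 of these (13.5%; ACTR3-AS1, FHL1, FHL2, GBP1 and RTN2) held a CArG box in at least 1 window, beside 1.61% of 8175 matched genes tested and 0 of 24 matched genes called higher. For the ISRE the shares were 8.11% of the lower, 4.17% of the higher and 3.66% of the tested genes. Genes differ in the number of windows listed, the counts are small, and the shares carry no test.

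Other called genes outside the rule, named after their values were seen, included peptidases, a receptor and an actin-binding protein. DPP4, the CD26 peptidase, was at 217 to 331 CPM in CD133- Control and 325 to 559 in CD133- EIF4G2KD (log2 fold change 0.59), and PCSK5, a proprotein convertase gene, at 4.80 to 22.1 and 17.0 to 23.8 (1.39). IL1R2, the decoy receptor of interleukin-1, was at 3.10 to 13.1 and 2.42 to 4.28 (−1.44), and LCP1, the actin bundler L-plastin, at 2.32 to 54.4 and 1.28 to 20.3 (−1.52). In PCSK5, IL1R2 and LCP1 the library labelled CD133- Control replicate 2 lay at 22.1, 3.10 and 2.32 CPM, the end of the Control range nearest the knock-down. The genes of chromosome 4 had the lowest median log2 fold change of a chromosome (−0.12 over 324 genes) and those of chromosome 9 the highest (0.09 over 441).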
